A study of Mus musculus with 12 samples.

Results

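The genes described here are 39 activity-induced immediate early genes, the rapid transcriptional response that neurons mount to synaptic input, read in the striatum of mice that carry Huntington's disease alleles with or without the glutamate receptor mGluR5. A gene entered when a probe set of the array carried its symbol and no other, and where several did, the probe set with the highest mean signal was taken. All 39 listed genes were found, of 19938 genes with such a probe set, and each had 1 probe set. The rule itself uses gene names and no measured difference, but the list was drawn up with earlier results of these data known.

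Immediate early genes need no new protein synthesis: calcium entry and kinase signalling act on CREB, SRF with its ternary complex partners and other factors that already sit on their promoters, and the transcripts appear and decay quickly. Many encode transcription factors (Fos, Jun, Egr and Nr4a families), and others act at synapses (Arc, Nptx2) or switch off the kinases that induced them (the dual-specificity phosphatases). mGluR5, encoded by Grm5, is a Gq-coupled receptor abundant in striatal projection neurons, where it raises calcium and drives the ERK pathway that induces several of these genes.

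Striatal RNA of 90-day-old male mice was hybridised to 12 whole-transcript arrays, 3 for each of 4 genotypes, on a mixed background given as 129, CD-1, C57BL/6 and FV. Every mouse carried a knock-in at both copies of Htt, either the short HdhQ20/Q20 control alleles or the expanded HdhQ111/Q111 alleles that model Huntington's disease, so the controls were not unmodified wild types. On each allele, mice were mGluR5+/+ or mGluR5-/-, the latter named as knockouts with no conditional driver given. The labels do not say whether the 3 arrays of a genotype came from 3 animals, nor when in the day or after what handling tissue was taken, and p-values therefore measure the spread between these arrays. In bulk striatum, fewer cells of a type and less RNA per cell cannot be told apart.

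The deposited values are log2 signals, on which a difference of 1 is a doubling. Array medians lay between 7.05 and 7.16. Grm5 checked the labels: its signal was 11.95, 12.08 and 11.97 in Q20 mGluR5+/+, 11.06, 10.93 and 11.17 in Q20 mGluR5-/-, 11.96, 12.01 and 11.85 in Q111 mGluR5+/+ and 11.14, 11.09 and 10.98 in Q111 mGluR5-/-. It fell with the deletion by 0.94 ± 0.09 (SE) in Q20 (limma adjusted p = 0.000189) and by 0.87 ± 0.09 in Q111 (adjusted p = 0.00017). Markers of striatal projection neurons were high on every array, Drd1 at 10.78 to 11.13, Drd2 at 11.98 to 12.15 and Penk at 12.74 to 13.01. The distribution of the arrays was not equally wide: the interquartile range ran from 2.56 on Q111 mGluR5+/+ replicate 3 to 2.95 on Q20 mGluR5-/- replicate 2.

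Sequences just upstream of an annotated start site are given for genes that the results turn on, with the elements on which CREB and SRF are known to act. Those of Nr4a1, Egr2 and Per1, and most of that of Nr4a3, lie inside the span of the gene, after its first annotated base. RefSeq windows on GRCm38.p6, 250 bases long and ending just before the start, were matched for 29 of the 39 genes, with 39 windows in all because some genes have several starts. Arc, Dusp4, Egr1, Egr3, Ier2, Klf10, Nptx2, Sik1, Trib1 and Vgf were not matched. Windows are shown for Nr4a1 (chr15:101266596-101266845, + strand), Nr4a3 (chr4:48045055-48045304, + strand) and Nr4a2 (chr2:57124004-57124253, - strand). In this family of receptors, Nr4a3 varied with Nr4a1 from array to array (r = 0.636) and Nr4a2 did not (-0.322). Without the 2 arrays farthest from the median of Nr4a1 these were 0.410 and -0.056. Fos (chr12:85473640-85473889, + strand) is shown because it is the reference gene of the class. For Egr2 (chr10:67537793-67537822, + strand) and Per1 (chr11:69100008-69100037, + strand), 30 bases around the element are shown. Capitals mark the half-site of the cAMP response element (CGTCA, or TGACG where it lies on the other strand) and, in Egr2, also the CArG box that SRF binds.
Nr4a1: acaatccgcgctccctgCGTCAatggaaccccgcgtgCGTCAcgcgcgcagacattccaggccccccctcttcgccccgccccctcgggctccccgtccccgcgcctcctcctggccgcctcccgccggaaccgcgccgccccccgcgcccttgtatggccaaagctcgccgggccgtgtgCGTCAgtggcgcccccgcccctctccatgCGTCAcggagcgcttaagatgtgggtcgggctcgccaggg
Nr4a3: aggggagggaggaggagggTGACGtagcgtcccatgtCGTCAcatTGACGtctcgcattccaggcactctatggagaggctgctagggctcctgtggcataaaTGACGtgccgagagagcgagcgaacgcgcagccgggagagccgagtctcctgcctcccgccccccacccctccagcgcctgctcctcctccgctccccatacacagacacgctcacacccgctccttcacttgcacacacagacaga
Nr4a2: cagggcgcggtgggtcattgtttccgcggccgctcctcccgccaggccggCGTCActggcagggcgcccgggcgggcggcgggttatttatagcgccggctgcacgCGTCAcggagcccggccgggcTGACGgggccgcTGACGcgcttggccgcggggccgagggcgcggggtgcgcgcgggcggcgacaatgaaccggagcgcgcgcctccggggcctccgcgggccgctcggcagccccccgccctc
Fos: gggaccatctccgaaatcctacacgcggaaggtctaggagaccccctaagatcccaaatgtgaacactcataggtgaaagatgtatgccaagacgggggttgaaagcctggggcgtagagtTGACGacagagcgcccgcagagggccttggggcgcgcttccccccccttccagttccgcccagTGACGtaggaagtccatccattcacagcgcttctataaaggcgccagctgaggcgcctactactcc
Egr2: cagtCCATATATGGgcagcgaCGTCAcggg
Per1: gagctcagcggcTGACGtcggtttccctgg

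Searched on both strands, the half-site CGTCA was in 26 of the 39 windows (66.7%), from 19 of the 29 genes, against 17.8% of all 32851 windows of that length. The full element TGACGTCA, which contains the half-site, was in 4 windows (10.3%), those of Btg2, Dusp1, Maff and Plk2, against 1.55% of all windows. A CArG box (CC, then 6 A or T, then GG) was in 5 windows (12.8%), all of Egr2 or Dusp5, against 1.47%. By gene, 2 of the 29 held it, against 1.62% of all 27025 genes with windows. Median GC content was 64.0% in the windows of these genes and 52.4% in all windows, and windows of a gene with several starts overlap. Each of the Nr4a1, Nr4a2 and Nr4a3 windows held 4 half-sites, although Nr4a2 did not vary with Nr4a1 from array to array. A match is a description of letters and not a measured binding site.

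All 39 genes passed the filter on low signal, which kept 16721 genes, and 1 of them, Dusp4, was below the 25th percentile on 1 array. The comparisons fitted were 7: the expanded allele with and without mGluR5, the loss of mGluR5 on each allele, the interaction, and the average of each factor over the other. They share arrays, so their values are given side by side and are not independent. No member passed limma's adjusted p of 0.05 in any of them. The plain linear model without moderation also called 0 in each. The array-by-array picture, given next, shows where these genes did vary.

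**Figure D1:**
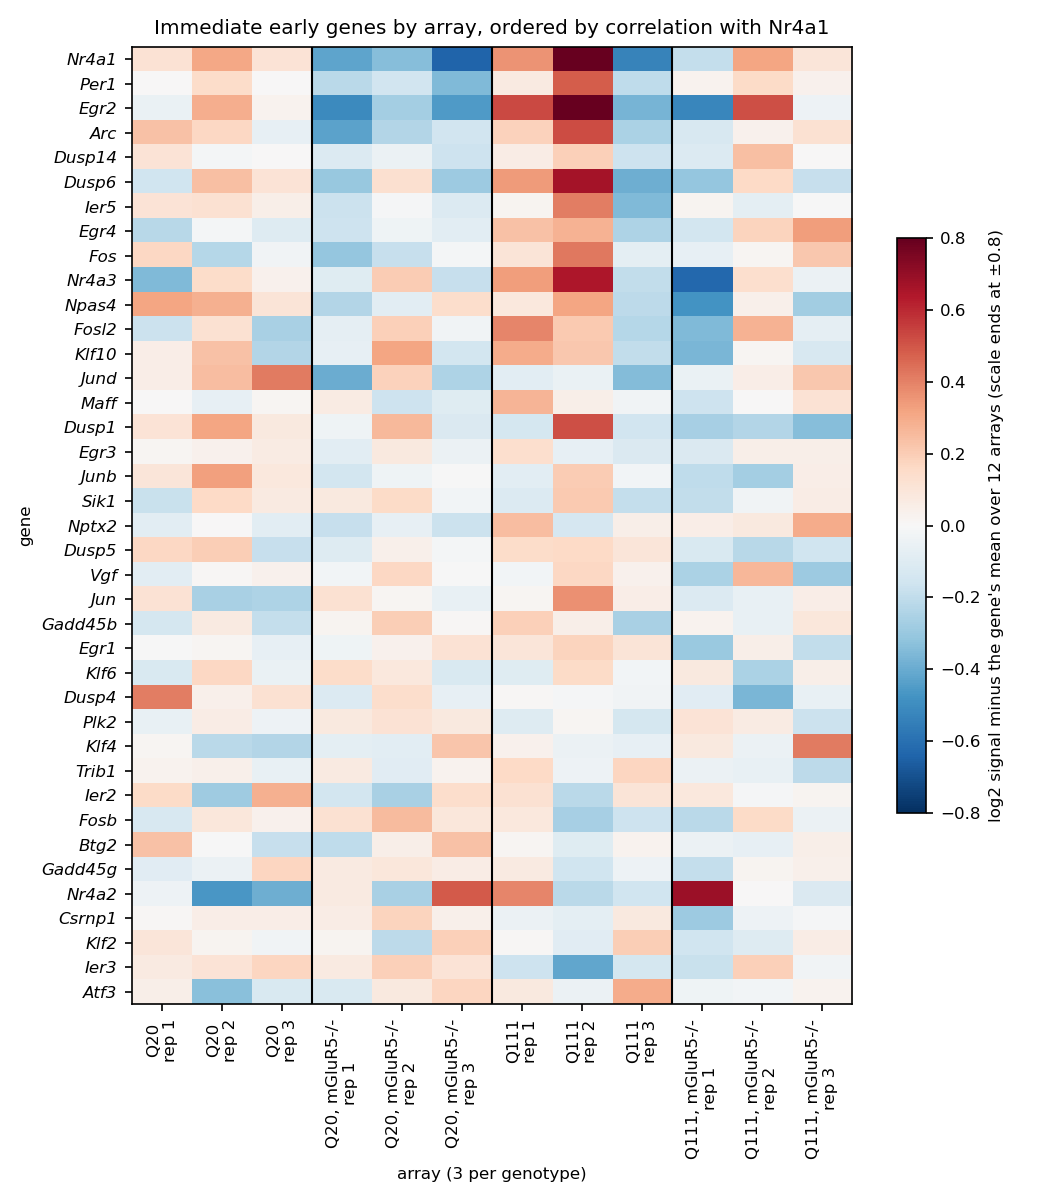
Log2 signal of each of the 39 genes (rows) on each of the 12 arrays (columns, 3 per genotype), as the difference from the gene's mean over all arrays; genes are ordered by their correlation with Nr4a1. The upper genes are red on Q111 mGluR5+/+ replicate 2 and blue on Q111 mGluR5+/+ replicate 3 and on most of the Q20 mGluR5-/- arrays.

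The clearest difference in level after loss of mGluR5 on the Q20 allele was in Nr4a1, the orphan nuclear receptor Nur77 that dopamine and glutamate signals regulate in striatal projection neurons. Its log2 signal was 8.97, 9.16 and 8.96 in Q20 mGluR5+/+ and 8.43, 8.51 and 8.21 in Q20 mGluR5-/-, so every array without the receptor lay below every array with it. The difference was -0.65 ± 0.24 (SE), a 1.57-fold lower signal, with a 95% interval of -1.16 to -0.14 and an adjusted p of 0.594 by limma. In Q111 mGluR5+/+ the same gene measured 9.21, 9.67 and 8.32, and in Q111 mGluR5-/- 8.66, 9.17 and 8.95. These groups overlapped, with a difference of -0.14 ± 0.24. The interaction was 0.51 ± 0.34 (adjusted p = 0.9999), which does not show that the loss acts differently on the 2 alleles, nor that it acts alike. The SE pools the spread of all 4 genotypes. For Nr4a1 the SD was 0.113 in Q20 mGluR5+/+, 0.152 in Q20 mGluR5-/-, 0.685 in Q111 mGluR5+/+ and 0.256 in Q111 mGluR5-/-. In a fit on the compared groups alone, limma gave the Q20 difference an adjusted p of 0.0196, where 0.431% of all genes were called.

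Egr2, a zinc finger factor of the Egr family, followed the same order of groups. It measured 8.21, 8.55 and 8.29 in Q20 mGluR5+/+ and 7.75, 7.99 and 7.81 in Q20 mGluR5-/-, without overlap, a difference of -0.50 ± 0.27 (adjusted p = 0.910 by limma). On the Q111 allele it measured 8.79, 9.12 and 7.89 with the receptor and 7.74, 8.78 and 8.22 without it, and the groups overlapped. Arc, whose protein binds the endocytic machinery and shapes AMPA receptor trafficking, measured 9.71, 9.64 and 9.41 in Q20 mGluR5+/+ and 9.05, 9.24 and 9.32 in Q20 mGluR5-/-. Again the groups stood apart, by -0.38 ± 0.16 (adjusted p = 0.727). In Q111 mGluR5+/+ Arc measured 9.66, 10 and 9.22 and in Q111 mGluR5-/- 9.35, 9.51 and 9.60, with the second group inside the range of the first. Per1, a clock gene that is also induced through CREB, measured 9.44, 9.58 and 9.44 in Q20 mGluR5+/+ and 9.22, 9.28 and 9.08 in Q20 mGluR5-/-, apart by -0.29 ± 0.14 (adjusted p = 0.825). On the Q111 allele Per1 was 9.51, 9.92 and 9.23 with the receptor and 9.46, 9.59 and 9.47 without it, overlapping. Ier5, a heat-shock factor regulator, was 7.77, 7.78 and 7.71 against 7.49, 7.65 and 7.55 on the Q20 allele, and 7.68, 8.07 and 7.31 against 7.68, 7.58 and 7.66 on the Q111 allele.

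Across the 39 genes, loss of mGluR5 on the Q20 allele left 7 with every mGluR5-/- array below every mGluR5+/+ array: Nr4a1, Egr2, Arc, Per1, Ier5, Junb and Dusp14. These are 17.9% of the members, against 4.92% of all genes tested. One, the kinase Plk2, stood apart upwards (2.56%, against 7.89% of all genes). Egr2, Arc, Per1, Ier5 and Dusp14 varied with Nr4a1 from array to array (r of 0.808 to 0.959), so the 7 are not separate observations. Beside these values, the mean of 14 endothelial and mural markers was 7.56 to 7.73 on the Q20 mGluR5+/+ arrays and 7.73 to 7.78 on the Q20 mGluR5-/- arrays, and that of 7 microglia markers 8.38 to 8.44 and 8.42 to 8.64. Their part in the result was not tested. Of the members, 4 had an unadjusted p below 0.05, all lower (Nr4a1, Jund, Arc and Per1), 10.3% against 6.02% of all genes in either direction. By limma's adjusted p, 0 were called, where 0.299% of all genes were. The median difference of the members was 0.00, with 19 of 39 negative, beside a median of 0.02 and 43.0% negative over all genes, so the lower values were those of a few members.

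**Figure D2:**
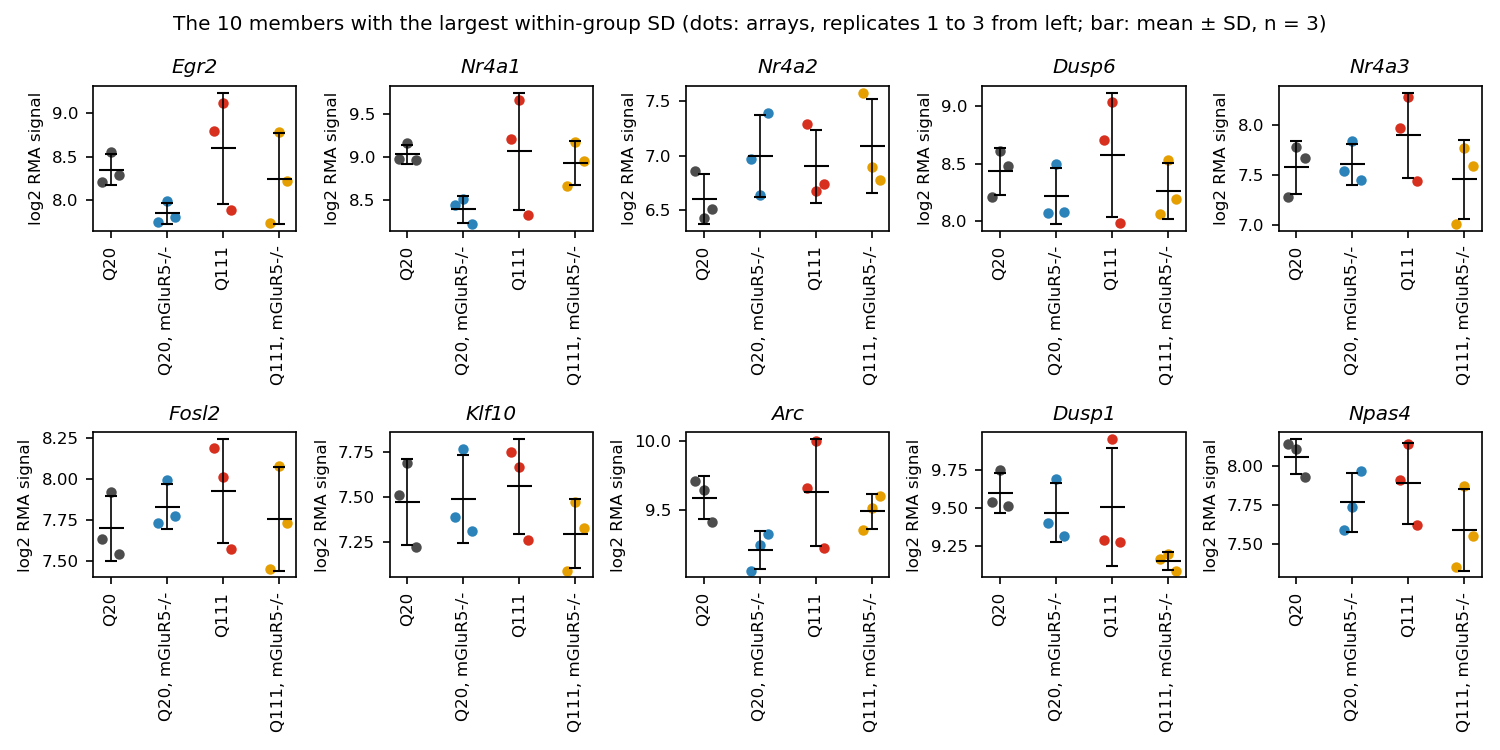
Log2 signal of the 10 genes with the largest within-genotype SD on each array (dots), with the mean ± SD of each genotype (n = 3). Nr4a1, Egr2 and Arc do not overlap between the Q20 genotypes, and for these 3 genes replicate 2 is the highest and replicate 3 the lowest Q111 mGluR5+/+ array.

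On the Q111 allele, loss of mGluR5 separated other genes. Dusp5, a nuclear phosphatase of ERK, measured 7.43, 7.44 and 7.38 with the receptor and 7.16, 7.06 and 7.12 without it, a difference of -0.31 ± 0.10 (adjusted p = 0.589 by limma). Egr1, the family member most used as a marker of neuronal activity, was 9.49, 9.57 and 9.50 with the receptor and 9.10, 9.44 and 9.20 without it, -0.27 ± 0.10 (adjusted p = 0.691). Dusp1, a phosphatase of p38, JNK and ERK, was 9.29, 9.95 and 9.28 against 9.17, 9.20 and 9.09, -0.36 ± 0.16 (adjusted p = 0.99992). The 3 genes had no overlap between these groups. On the Q20 allele the corresponding values overlapped: Egr1 was 9.39, 9.41 and 9.33 with the receptor and 9.36, 9.43 and 9.51 without it, and its interaction was -0.33 ± 0.14 (adjusted p = 0.825). Dusp5 was 7.45, 7.48 and 7.10 against 7.18, 7.32 and 7.27, and Dusp1 9.54, 9.75 and 9.51 against 9.40, 9.69 and 9.32.

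With Dusp4 and the kinase regulator Trib1, 5 members stood lower in Q111 mGluR5-/- without overlap (12.8%, against 3.69% of all genes), and Jund stood higher (2.56%, against 3.77%). At an unadjusted p below 0.05 there were 5 (12.8%, against 4.36%), Dusp5, Egr1, Dusp1 and Trib1 lower and Ier3 higher. None was called by limma's adjusted p, where 0.275% of all genes were. The members' median was -0.10 with 26 of 39 negative (66.7%), beside 0.01 and 47.4% over all genes. The 7 names of the Q20 allele and the 5 of the Q111 allele had 0 in common; whether the loss differs between alleles is the question of the interaction.

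Averaged over both alleles, the loss of mGluR5 gave negative differences for 28 of the 39 members (71.8%, against 43.0% of all genes), with a median of -0.06 beside 0.01. In all, 8 members were lower at an unadjusted p below 0.05 and none was higher: Npas4, Dusp5, Junb, Arc, Nr4a1, Dusp4, Egr2 and Dusp1. These 8 are 20.5% of the members, where 2.33% of all genes were lower and 5.32% differed in either direction at that p. Among the 8, Egr2 and Arc varied with Nr4a1 from array to array (r = 0.931 and 0.894). Npas4 and Dusp1 did so less (0.532 and 0.417), with 0.691 and 0.715 after group means were removed. Junb, Dusp5 and Dusp4 were at 0.380, 0.223 and 0.026. Egr2, Arc, Npas4 and Dusp1 are therefore not observations separate from Nr4a1. By limma's adjusted p, 0 members were called (lowest 0.661), where 0.293% of all genes were, and in no member were the 6 arrays without the receptor all below the 6 with it. Npas4, a calcium-dependent factor that organises inhibitory synapses, had the nearest differences on the alleles among these 8. It measured 8.14, 8.11 and 7.93 against 7.59, 7.74 and 7.97 in Q20 and 7.91, 8.14 and 7.62 against 7.35, 7.87 and 7.55 in Q111, differences of -0.29 and -0.30. The average was -0.29 ± 0.11 with an adjusted p of 0.661.

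**Figure D3:**
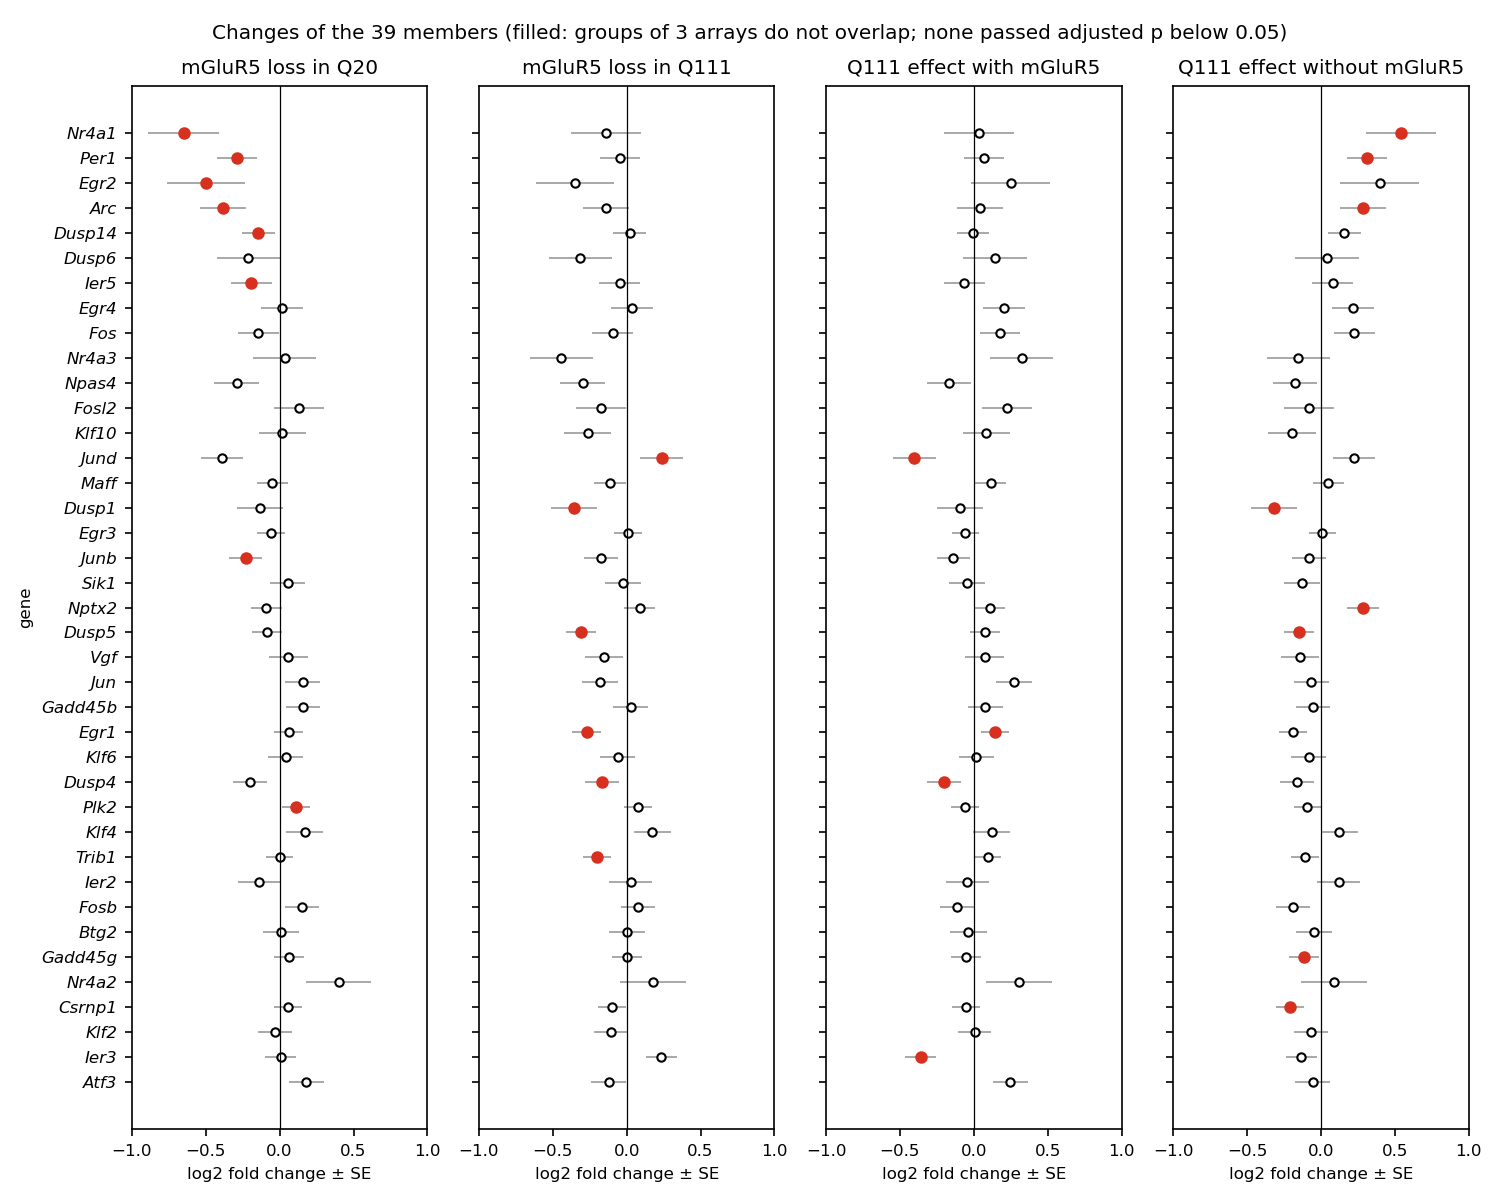
Log2 difference ± SE of each of the 39 genes in the 4 pairwise comparisons; filled points mark genes whose groups of 3 arrays do not overlap. In Q20, filled points for loss of mGluR5 lie mostly left of 0 (7 lower and 1 higher), and no point passed the adjusted threshold.

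With mGluR5 present, the expanded Htt allele gave the members a median difference of 0.04, with 16 of 39 negative (41.0%), beside -0.01 and 54.1% over all genes. Ier3, a stress-induced regulator of ERK and survival signalling, was 7.38, 7.42 and 7.48 in Q20 mGluR5+/+ and 7.14, 6.89 and 7.17 in Q111 mGluR5+/+, apart by -0.36 ± 0.11 (adjusted p = 0.243 by limma). Jund, an AP-1 subunit with much constitutive expression, was 8.52, 8.71 and 8.88 against 8.38, 8.41 and 8.12, apart by -0.40 ± 0.14 (adjusted p = 0.456). Dusp4 also stood apart downwards, at 6.57, 6.20 and 6.28 against 6.17, 6.15 and 6.13, and Egr1 upwards, by 0.14 ± 0.10. The 3 lower genes are 7.69% of the members, against 5.3% of all genes, and the 1 higher gene 2.56%, against 4.39%. At an unadjusted p below 0.05 there were 3 members (Jun higher, Ier3 and Jund lower), 7.69% against 6.84%, and by the adjusted p 0, where 0.574% of all genes were called. These shares were near those of all genes.

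In the absence of mGluR5 the expanded allele had Nr4a1 at 8.66, 9.17 and 8.95 against 8.43, 8.51 and 8.21 in Q20 mGluR5-/-, apart by 0.54 ± 0.24 (adjusted p = 0.484 by limma). Per1 was 9.46, 9.59 and 9.47 against 9.22, 9.28 and 9.08, apart by 0.31 ± 0.14 (adjusted p = 0.482), and Arc was also higher on every Q111 array, by 0.28 ± 0.16. Nptx2, a secreted pentraxin that clusters AMPA receptors, was 8.27, 8.29 and 8.51 against 8.03, 8.15 and 8.04, apart by 0.29 ± 0.11 (adjusted p = 0.364). These comparisons use the same Q20 mGluR5-/- arrays that were low for Nr4a1, Per1 and Arc above. On this comparison 4 members stood higher (10.3%, against 6.07% of all genes) and 4 lower (10.3%, against 13%), the latter being Csrnp1, Dusp1, Dusp5 and Gadd45g. An unadjusted p below 0.05 was reached by 4 (10.3%, against 9.44%), Nptx2, Nr4a1 and Per1 higher and Csrnp1 lower. By the adjusted p 0 were called, where 0.885% of all genes were. The median was -0.06 with 23 negative (59.0%), beside -0.02 and 56.7% over all genes.

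Averaged over both mGluR5 genotypes, the expanded allele had its lowest adjusted p among members at Ier3, -0.25 ± 0.07 (adjusted p = 0.165 by limma). Ier3 in the mGluR5-/- arrays was 7.38, 7.50 and 7.42 in Q20 and 7.13, 7.50 and 7.28 in Q111, which overlapped. Nptx2 followed with 0.20 ± 0.07 (adjusted p = 0.315), measured at 8.13, 8.22 and 8.13 in Q20 mGluR5+/+ and 8.46, 8.08 and 8.26 in Q111 mGluR5+/+. Of the members, 3 had an unadjusted p below 0.05 (7.69%, against 11.4% of all genes), Nptx2 higher and Ier3 and Dusp4 lower. None was called, where 1.32% of all genes were. The median was -0.01 with 20 of 39 negative (51.3%), beside -0.02 and 56.6% over all genes. Fos, the founding member of the class, was 6.42, 6.03 and 6.23 in Q20 mGluR5+/+, 5.95, 6.07 and 6.24 in Q20 mGluR5-/-, 6.36, 6.68 and 6.18 in Q111 mGluR5+/+ and 6.19, 6.27 and 6.47 in Q111 mGluR5-/-. All 4 groups overlapped, and its average difference for the expanded allele was 0.20 ± 0.10, with a 95% interval of -0.0047 to 0.41.

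In the interaction, which asks whether the 2 genotypes combine additively, Jund had the lowest p. It measured 8.07, 8.65 and 8.22 in Q20 mGluR5-/- and 8.41, 8.52 and 8.68 in Q111 mGluR5-/-, so the receptor's loss gave -0.39 ± 0.14 on the Q20 allele and 0.24 ± 0.14 on the Q111 allele. Their difference was 0.63 ± 0.20, with an adjusted p of 0.516 by limma. Jund and Egr1 were the members with an unadjusted p below 0.05 (5.13%, against 5.37% of all genes), and 0 were called by the adjusted p, where 0.437% of all genes were. The series description sets an unadjusted p below 0.05 and a 1.5-fold change as its criteria. With the p of the linear model without moderation, Jund met them here, where 165 of all 16721 genes (0.987%) did. No member met them in the other comparisons. The median of the members was -0.06 with 23 of 39 negative (59.0%), beside -0.01 and 53.6% over all genes.

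The members not yet given are taken by role. Among the AP-1 factors, which bind DNA as Fos-Jun pairs, Jun was 8.30, 7.93 and 7.94 in Q20 mGluR5+/+ and 8.20, 8.55 and 8.24 in Q111 mGluR5+/+, a difference of 0.27 ± 0.12 with overlapping groups (adjusted p = 0.675 by limma). Junb was 6.86, 7.09 and 6.85 in Q20 mGluR5+/+ and 6.62, 6.73 and 6.76 in Q20 mGluR5-/-, apart by -0.23 ± 0.11, with -0.17 ± 0.11 on the Q111 allele. Fosb, whose truncated product accumulates in the striatum after repeated stimulation, lay between 7.26 and 7.78 on all arrays. The stress-responsive AP-1 partner Atf3 (6.13 to 6.76) and the small Maf factor Maff (7.33 to 7.77) overlapped in all 4 pairwise comparisons.

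Of the remaining Egr factors, Egr4 had an average difference of 0.21 ± 0.10 for the expanded allele (adjusted p = 0.445 by limma), and Egr3, had no average difference larger than 0.03 in size. Among neuronal effectors, the secreted precursor Vgf ranged from 7.98 to 8.54, and Plk2, a kinase of synaptic scaling, from 10.31 to 10.6. The phosphatase Dusp14 spanned 10.06 to 10.47. Dusp4, a nuclear phosphatase of ERK and JNK, had negative differences in all 4 pairwise comparisons, from -0.20 to -0.16. The Krüppel-like factors Klf2, Klf4 and Klf6 overlapped between groups in all 4, with Klf4 at 0.17 ± 0.09 for the average loss of mGluR5 and Klf2 at -0.07. Growth-arrest genes Btg2, Gadd45b and Gadd45g, the salt-inducible kinase Sik1, which restrains CREB coactivators, and Ier2 lay between 5.77 (Ier2) and 8.72 (Sik1). No pairwise difference of these 5 exceeded 0.16 in size. Csrnp1, a nuclear factor of the cysteine-serine-rich family, had a difference of -0.21 ± 0.10 between Q111 mGluR5-/- and Q20 mGluR5-/- (adjusted p = 0.518 by limma).

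The size of change that these arrays could bound differed by gene. Each interval rests on a spread pooled over all 4 genotypes, so a gene has the same SE in every pairwise comparison. The 95% interval lay within a 1.5-fold change either way for 32 members for the expanded allele with mGluR5, 33 without it, 32 for the loss of mGluR5 on the Q20 allele and 31 on the Q111 allele. For the average over the other factor it did so for 37 and 35 members, and for the interaction for 23. The genes outside that bound in both pairwise comparisons of mGluR5 loss were Dusp6, Egr2, Npas4, Nr4a1 and Nr4a2. Plk2, Egr3 and Vgf, by contrast, were inside it in all 4 pairwise comparisons.

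A few members varied much more between arrays of one genotype than most genes did. Of the 39, 9 were among the 1673 genes (the top 10% of those tested) with the largest within-genotype SD: Egr2 (0.43), Nr4a1 (0.38), Nr4a2 (0.35), Dusp6 (0.34), Nr4a3 (0.33), Fosl2 (0.25), Klf10 (0.24), Arc (0.23) and Dusp1 (0.23), followed by Npas4 (0.22). The median SD was 0.16 over the members and 0.14 over all genes. At the other end, Trib1, Egr3 and Plk2 had SDs of 0.09. Egr3 kept to 10.06 to 10.31 over all 12 arrays while Egr2 ranged from 7.74 to 9.12, so genes of 1 family differed widely in how steady they were.

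**Figure D4:**
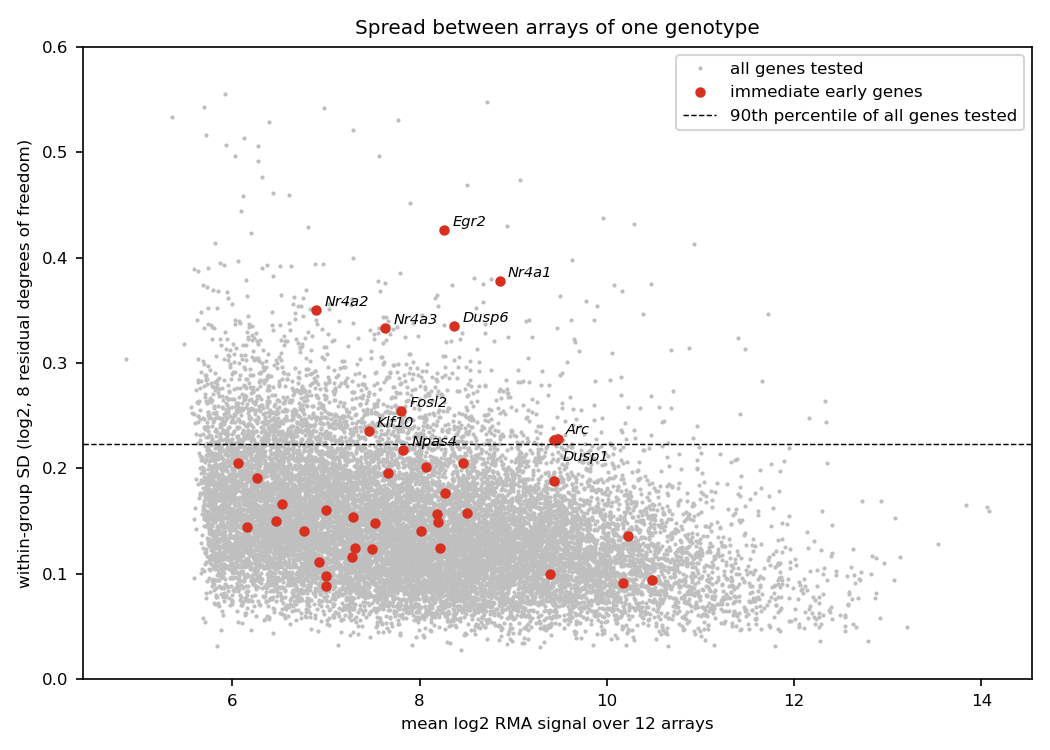
Within-genotype SD of the log2 signal (vertical axis) against the mean log2 signal (horizontal axis) for all genes tested (grey) and the 39 immediate early genes (red); the dashed line is the 90th percentile of all genes. The 9 red points of largest spread lie above the line, Egr2 at 0.43 the highest; 6 genes with an SD above 0.6 lie beyond the axis.

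The remaining genes of large spread differed as much between replicates of a genotype as between genotypes. Dusp6, the cytoplasmic ERK phosphatase, was 8.21, 8.61 and 8.48 in Q20 mGluR5+/+, 8.07, 8.5 and 8.08 in Q20 mGluR5-/-, 8.71, 9.04 and 7.98 in Q111 mGluR5+/+ and 8.06, 8.53 and 8.19 in Q111 mGluR5-/-. Nr4a3, the third nuclear receptor of the Nr4a family, was 7.28, 7.78 and 7.67, then 7.54, 7.84 and 7.45, then 7.97, 8.28 and 7.44, then 7.01, 7.77 and 7.59 in the same order. Both genes overlapped in all 4 pairwise comparisons. Fosl2, an AP-1 subunit, was 7.63, 7.92 and 7.54, then 7.73, 7.99 and 7.77, then 8.19, 8.01 and 7.57, then 7.45, 8.08 and 7.73. Klf10, a zinc finger factor, was 7.51, 7.69 and 7.22, then 7.39, 7.77 and 7.31, then 7.75, 7.67 and 7.26, then 7.09, 7.47 and 7.33. In Q111 mGluR5+/+, replicate 3 was the lowest array for each of these 4 genes. Nr4a2, the receptor Nurr1, ran otherwise, at 6.86, 6.43 and 6.51, then 6.97, 6.64 and 7.39, then 7.29, 6.68 and 6.74, then 7.58, 6.90 and 6.78. Nr4a2 is also 1 of the 9 cortical projection neuron markers read here. The mean of those 9 was 7.61, 7.59 and 7.53 on the arrays where Nr4a2 was at 7.39, 7.29 and 7.58. On the other arrays that mean was at most 7.40. The part of cortical tissue in the values of Nr4a2 was not tested.

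Whether members varied together from array to array was read by correlation. Fos was set as the reference gene, and its 38 correlations with the other members over the 12 arrays were positive for 29, with a median r of 0.19. Arc was nearest to it, with r = 0.816 (permutation p = 0.00169, two-sided, adjusted over the 38 relations 0.0642) and Spearman's rho = 0.741 (permutation p = 0.00804, adjusted 0.299). Without the 2 arrays farthest from the median of Fos, r fell to 0.532. Nr4a1 (0.640), Per1 (0.629), Egr2 (0.607) and Ier5 (0.604) came next, each with an adjusted p of 0.183. Without the same 2 arrays these were 0.298, 0.159, 0.204 and 0.110. Leaving out the arrays where Fos is most extreme narrows its range, which can lower r by itself. The fall therefore cannot show whether the relation rested on those arrays. Fos, at 5.95 to 6.68, also lay near the arrays' 25th percentile (5.69 to 5.94). No relation passed the adjusted p of 0.05. An unadjusted permutation p below it was found for 9, of which Ier3 (-0.603) and Fosb (-0.588) were negative. With all arrays 8 relations had r above 0.5. Without the 2 arrays 5 did, of which Arc and Jun (0.567) were among the 8, while Maff (0.672), Klf4 (0.654) and Ier2 (0.590) were not. Leaving out Q111 mGluR5+/+ replicate 2 alone gave 4 above 0.5.

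Nr4a1, with its wider range of 1.46, gave a tighter picture, but it was picked as a reference after the values had been seen, so its correlations are given as a description over 12 arrays with no p. Per1 had r = 0.959 (rho 0.916), Egr2 0.931 (0.888), Arc 0.894 (0.867), Dusp14 0.865 (0.909), Dusp6 0.843 (0.853) and Ier5 0.808 (0.720). After the group means were removed these were 0.940, 0.928, 0.816, 0.845, 0.926 and 0.840 in that order, so the likeness was present among arrays of one genotype. Without the 2 arrays farthest from the median of Nr4a1 they were 0.931, 0.897, 0.878, 0.791, 0.727 and 0.691. Egr1, at 0.147, and the Nr4a receptor Nr4a2, at -0.322, did not run with it, while Nr4a3 was at 0.636 (0.862 with group means removed). Without the same 2 arrays Nr4a3 was at 0.410. Over all 741 pairs of members the median r was 0.116. Over the 45 pairs of the 10 genes of largest spread it was 0.582, with 36 positive and the lowest at -0.575. Nr4a2 was in all of the negative pairs, and the other 9 genes (Egr2, Nr4a1, Dusp6, Nr4a3, Fosl2, Klf10, Arc, Dusp1 and Npas4) were grouped after this was seen, with a median of 0.633 over 36 pairs. With a fit on the interquartile range over all 12 arrays removed first, and group means after it, 30 of those 36 were positive. Their median was 0.568 and the lowest was -0.432. That order can leave part of the relation to the interquartile range within genotypes, so these values cannot show whether the likeness is apart from it.

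**Figure D5:**
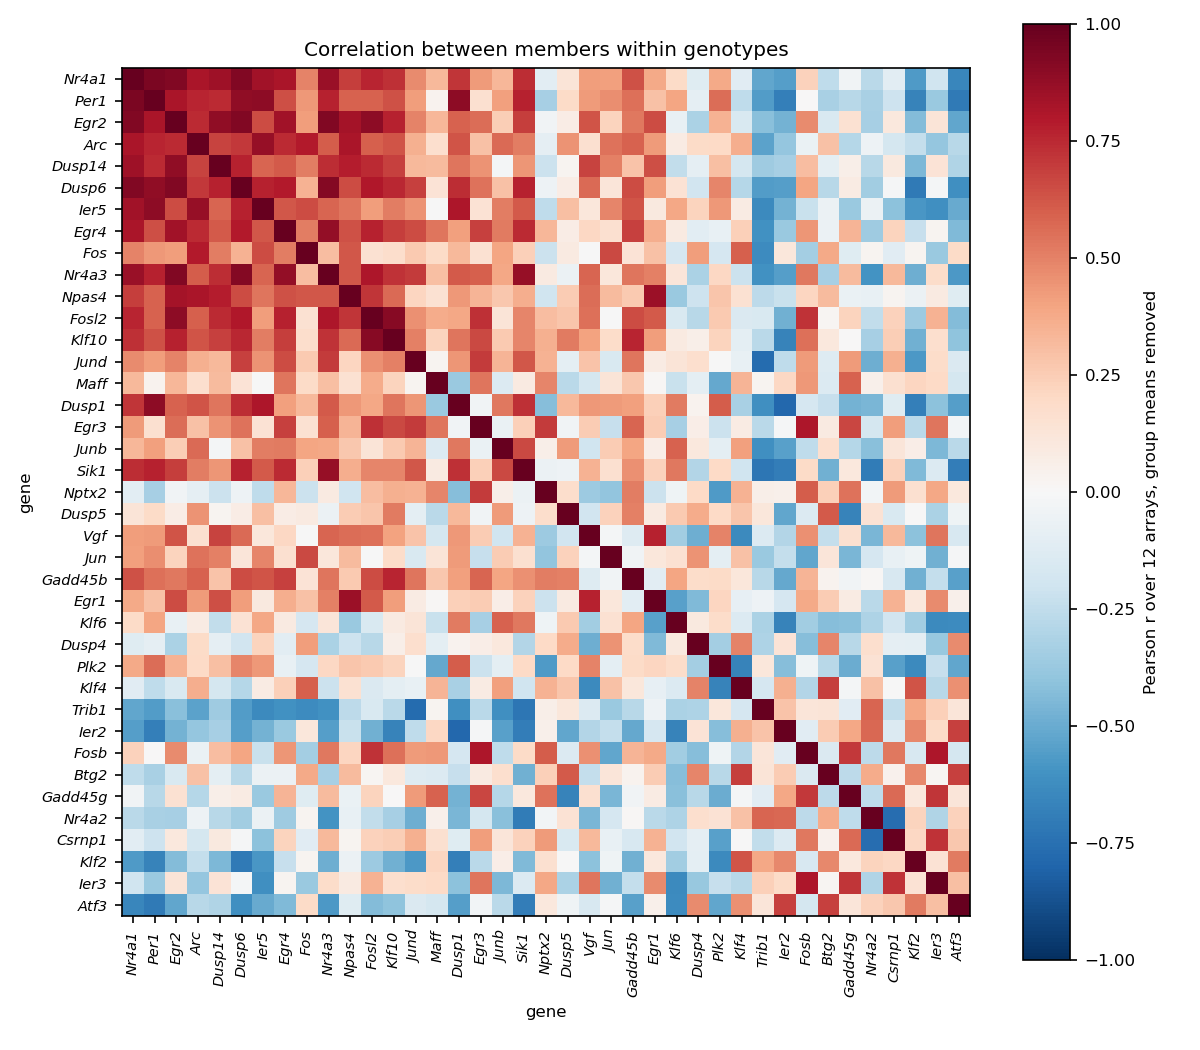
Pearson r between each pair of the 39 genes over the 12 arrays after the mean of each genotype was removed, ordered by correlation with Nr4a1. The block of red at the upper left holds Nr4a1, Per1, Egr2, Arc, Dusp14, Dusp6 and Ier5, and Nr4a2 lies apart from it.

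The mean log2 signal of those 9 genes was, by array, 8.36, 8.58 and 8.33 in Q20 mGluR5+/+, 8.11, 8.36 and 8.14 in Q20 mGluR5-/-, 8.61, 8.88 and 8.07 in Q111 mGluR5+/+ and 7.99, 8.49 and 8.25 in Q111 mGluR5-/-. The highest of all 12 arrays and the second lowest were thus replicates 2 and 3 of the same genotype. In each of the 4 genotypes, replicate 2 had the highest mean of the 9 genes and also the widest interquartile range (2.88, 2.95, 2.93 and 2.80 in the same order). With group means removed, the mean of the 9 genes had r = 0.804 with the interquartile range. With list means r was 0.974 for further activity-induced genes, 0.787 for astrocyte and 0.781 for striatal projection neuron markers. Upstream factors (0.733), heat shock (0.67), clock (0.639) and glucocorticoid-induced genes (0.581) followed. Other markers were at 0.22 (microglia) to -0.491 (endothelial and mural), so the likeness reached beyond the members. With the replicate number as a block, 0 members were called. Cell type markers differed between replicates 2 and 3 of Q111 mGluR5+/+ in both directions. Higher on replicate 2 were the means of 12 striatal projection neuron markers (11.41 and 11.25), 8 astrocyte markers (9.80 and 9.61), 9 cortical neuron markers (7.39 and 7.23) and 7 oligodendrocyte markers (10.96 and 10.85). Lower were 14 endothelial and mural markers (7.41 and 7.66) and 7 choroid plexus markers (6.5 and 6.72), and 7 microglia markers were at 8.38 on both. The interquartile range is measured on the same arrays and ran with the 9 genes, so its part in the genotype differences was not tested. As an alternative fit, it was added as a covariate. Counts over all genes rose, to 213 from 50 for the loss of mGluR5 on the Q20 allele. Nr4a1 and Per1 then passed limma's adjusted p for the loss of mGluR5 on the Q20 allele (-0.72, adjusted p = 0.0269, and -0.33, adjusted p = 0.0447), where 1.27% of all genes passed, and for the expanded allele without mGluR5 (0.76, adjusted p = 0.0182, and 0.43, adjusted p = 0.00794), where 2.11% did. Both also passed for the average difference of the expanded allele, with 2.92% of all genes. Dusp1 did so for the loss of mGluR5 on the Q111 allele (-0.37, adjusted p = 0.0410, with 0.897% of all genes) and on average (-0.28, adjusted p = 0.0333, with 1.02%). The part of the cell type markers in the result was not tested.

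Single arrays decided 2 further calls. Without Q111 mGluR5+/+ replicate 3, the average loss of mGluR5 gave Nr4a1 -0.58 with a limma adjusted p of 0.0354. Without Q111 mGluR5+/+ replicate 2, the average difference of the expanded allele gave Dusp1 -0.31 with an adjusted p of 0.0411. With all arrays neither was called. Over all genes, leaving out each array in turn gave 29 to 60 calls for the average loss and 119 to 511 for the average expanded allele.

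Genes around the class in the pathway were read from lists. Of 40 further activity-induced genes, 37 were tested, and 0 were called in any comparison. For the loss of mGluR5 on the Q20 allele, 26 of the 37 were positive (29.7% negative, against 43.0% of all genes), with a median of 0.06. At an unadjusted p below 0.05, 3 were higher and 1 lower, where 6.02% of all genes differed in either direction. On the Q111 allele 13 were positive (64.9% negative, against 47.4% of all genes), with a median of -0.05. There 0 were higher and 1 lower at that p, where 4.36% of all genes differed. Among the 37, Rgs4, which limits G-protein signalling from mGluR5, had an average difference of -0.29 ± 0.07 for the expanded allele (adjusted p = 0.0595 by limma). Gpr3, a constitutively active receptor, had -0.33 ± 0.09 for the average loss of mGluR5 (adjusted p = 0.250). Of 33 upstream kinases, factors and coactivators, 27 were tested and 0 were called, with 0 at an unadjusted p below 0.05 for the loss of mGluR5 on either allele, and medians of -0.01 and 0.01.

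Per1 was also read beside 15 of 16 other clock genes. None was called. For the average loss of mGluR5, 11 of the 15 were negative (73.3%, against 43.0% of all genes), with a median of -0.09 beside 0.01. At an unadjusted p below 0.05, 1 was higher and 2 lower, where 5.32% of all genes differed in either direction. Arntl, the activator that runs opposite to the Per genes over the day, was 8.68, 8.71 and 8.58 in Q20 mGluR5+/+ and 9.03, 9.17 and 9.05 in Q20 mGluR5-/-, without overlap. Its average difference was 0.30 ± 0.07 (adjusted p = 0.173 by limma), while Per3 had -0.28 ± 0.08 (adjusted p = 0.399) and Bhlhe41 -0.41 ± 0.13 (adjusted p = 0.431). These values stood beside the lower Per1 of the Q20 mGluR5-/- arrays, and their part in it was not tested. Elsewhere in the lists, which also held glucocorticoid-induced, heat shock and cell type marker genes, 2 genes passed. Zbtb16 fell with the expanded allele on average by 0.34 ± 0.07 (adjusted p = 0.0353). The pericyte channel subunit Abcc9 was higher after loss of mGluR5 on the Q20 allele by 0.46 ± 0.08 (adjusted p = 0.0203), at 6.85, 6.87 and 6.96 with the receptor and 7.33, 7.36 and 7.37 without it. On the same Q20 mGluR5-/- arrays as reference, Abcc9 fell with the expanded allele by 0.46 ± 0.08 (adjusted p = 0.0109 by limma), at 6.82, 6.98 and 6.87 in Q111 mGluR5-/-. In that comparison 13 of the 14 endothelial and mural markers were negative (92.9%, against 56.7% of all genes), with a median of -0.30 beside -0.02. Of these 14 markers 1 was called, where 0.885% of all genes were. Without overlap 9 were lower, where 13% of all genes were.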

How the data were processed

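Striatal RNA on 12 arrays was analysed, 3 for each of 4 genotypes. Per the labels and the deposited table, the authors' values are log2 signals after RMA normalization, which the submitters' processing notes name together with Partek; the series description names Partek Genomics Suite 6.5 and a criterion of ANOVA p below 0.05 with a 1.5-fold change. No background, detection call or scan date was used, and precision rests on 3 arrays a group. Of 35556 probe sets, 21789 carried 1 symbol in the platform annotation, 1621 several and 12146 none.

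A gene was tested when its signal exceeded the array's 25th percentile (5.69 to 5.94) on at least 3 arrays. Differences, their SE and Benjamini-Hochberg adjusted p were fitted over all 16721 genes and 4 genotypes with limma 3.58.1 (lmFit and eBayes, R 4.3.3, 8 residual degrees of freedom). Correlations used 100000 permutations (Python 3.11.15). Code was tested on simulated data. The members and lists were chosen with earlier results of these data known. The naming rule took all members, in full those called, the 10 of largest within-group SD and the 5 nearest to Fos, and from each other list called genes and those of smallest p; Jund, Ier3, Dusp5, Egr1 and Nptx2 were given in full after their values were seen. Alternatives covered moderation, the authors' criteria, intensity trend, arrays in the fit, the replicate block, array weights, scaling, normalization, the interquartile range, filters, probe sets and leaving out each array; gene-by-gene array weights and the settings for spread and Nr4a1 were added after seeing the data.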

Additional observations from a re-analysis of the deposited data

How the results depend on the processing

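No difference of a member reversed direction while called, and the count of 0 members called stayed 0 in every comparison with the plain linear model, an intensity trend, median centring, quantile normalization, other filters and averaged probe sets. Array weights estimated by REML, which stopped before converging, called 11 members for the expanded allele without mGluR5 (with 19.6% of all genes) and 11 for the loss of mGluR5 on the Q20 allele (12.7%). Weights estimated gene by gene, an alternative chosen after seeing the data, called 2 for the expanded allele with mGluR5 (5.79% of all genes), 1 without it (5.63%), 2 for the loss on the Q20 allele (2.3%), 1 for the interaction (1.95%), and 4 and 3 for the average expanded allele (11.4%) and average loss (2.25%). The interquartile range as a covariate called 2 for the expanded allele without mGluR5 (2.11% of all genes), 2 for the loss on the Q20 allele (1.27%) and 1 for the loss on the Q111 allele (0.897%). It also called 2 for the average expanded allele (2.92%) and 1 for the average loss (1.02%). A limma fit on the compared groups alone called 1 (Nr4a1, adjusted p = 0.0196) for the loss on the Q20 allele, with 0.431% of all genes. The authors' criteria, with an unmoderated p, called 1 (Jund) for the interaction, with 0.987% of all genes. Leaving out each array in turn gave 0 to 1 members for both averages, with 29 to 60 of all genes for the loss and 119 to 511 for the allele. Fos had 8 correlations above 0.5 with all arrays and 5 without the 2 farthest, 2 of them shared, and 4 to 10 leaving out each array. With a replicate block 0 members were called in each comparison; all-gene counts rose, for example to 129 from 50 for the loss on the Q20 allele and to 487 from 221 for the average expanded allele. The labels give the numbers no meaning, and 11 of 18 same-numbered pairs, not all, correlated above 0.1 (median 0.28, range -0.14 to 0.57, against a median of -0.08 for other pairs), so the block was kept as an alternative. The pairs of replicate 2 were all at 0.34 to 0.57, and 9 of 12 arrays correlated best with their own number, a hint from the data and not from the design. Counts over all genes ranged, across alternatives other than leaving out arrays, from 19 to 2120 around 50 for the loss on the Q20 allele, 23 to 346 around 46 on the Q111 allele, 17 to 376 around 49 for the average loss, 35 to 968 around 96 and 91 to 3270 around 148 for the expanded allele with and without mGluR5, 51 to 1900 around 221 for its average, and 19 to 326 around 73 for the interaction. Fos, Ier2 and Dusp4 lie near the arrays' 25th percentile.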
